A study of Gallus gallus with 6 samples.

Results

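The 200 genes described here are the most abundant of those whose transcript level was nearly even between 6 libraries. Each library came from sorted cranial neural crest cells pooled from chick embryos. The 200 were taken from 17108 genes listed by Ensembl identifier. For each library, a gene's read count was divided by the library's total and expressed as counts per 1000000 (CPM). A gene was kept when its highest CPM over the 6 libraries was at most 1.5 times its lowest, and dropped when all AQP1 values lay at least 1.3-fold above or below all pMES values. Of the genes left, the 200 with the highest mean CPM were taken. All 6 libraries entered this choice, so the evenness of these genes and their small difference between AQP1 and pMES are how they were chosen. Both are given below as values. Where calls from tests over all genes are counted among the 200, the counts follow from the choice and nothing is read from them.

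Cranial neural crest cells arise at the border of the neural tube, lose their epithelial contacts and migrate into the head, where they form skeleton, glia, neurons and pigment cells. Aquaporin-1, encoded by AQP1, is a membrane channel through which water crosses the cell surface. Transcripts that are both abundant and even between samples often belong to the cell's basic upkeep, such as protein synthesis, energy metabolism and the cytoskeleton, and such genes are commonly used as references for others. Whether the 200 genes encode proteins of these kinds was not determined, because the table gives identifiers only and the reference list of chicken genes used here pairs 0 of them with a name. No function, position or sequence is therefore given for any of them. For the same reason the neural crest label was not checked against marker genes, and the transfected gene was not looked up.

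The cells came from White Leghorn embryos. Premigratory crest had been electroporated with the AQP-1 FL construct, labelled AQP1 overexpression, or with pMES, labelled control overexpression, and the stream beside rhombomere 4 was dissected after 24 h, near Hamburger-Hamilton stage 15. Each of 3 AQP1 libraries pooled 4 embryos (12 in all), and each of 3 pMES libraries, numbered 1, 3 and 4, pooled 5 embryos (15 in all). From both groups, cells that were alive and YFP-positive were sorted. Fewer cells and less RNA per cell cannot be told apart in such pools.

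Depth differed between the groups. The AQP1 libraries held 28116856 to 29607133 counts and the pMES libraries 23423235 to 26019025, without overlap (p = 0.1 in an exact two-sided permutation test, the smallest value that 3 against 3 samples allow). pMES libraries 1 and 4 stood apart from the others over the whole table. They detected 11948 and 11918 genes, against 13026 to 13416 in the other 4 libraries. The 200 genes did not come near these detection limits, since the lowest count of any of them in any library was 12291.

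The 200 genes spanned a mean level of 631 to 12667 CPM, with a median of 965 CPM. Their place in the list of all genes ordered by mean CPM ran from 2 to 290, and 63 of the first 100 genes were among them. CPM is not corrected for transcript length, so this order is one of reads and not of transcript molecules. ENSGALG00000014442 had the highest level of the 200. It was measured at 11122, 11700.5 and 14853.5 CPM in AQP1 libraries 1, 2 and 3 and at 13164, 11295 and 13869.5 CPM in pMES libraries 1, 3 and 4. The groups overlapped, and the highest and lowest values were both in AQP1 libraries.

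ENSGALG00000013257 was second, at 6822, 7063 and 7426 CPM in AQP1 libraries 1, 2 and 3 and 6769.8, 5404 and 6683 CPM in pMES libraries 1, 3 and 4. Each AQP1 value exceeded each pMES value, with pMES library 3 the lowest. ENSGALG00000002569, the third, went the other way in that library. It stood at 5179, 5597 and 5544 CPM in AQP1 libraries 1, 2 and 3 and at 5213, 6806 and 6577 CPM in pMES libraries 1, 3 and 4. Its 2 highest values were in pMES libraries 3 and 4, while pMES library 1 lay within the range of the AQP1 libraries.

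**Figure D1:**
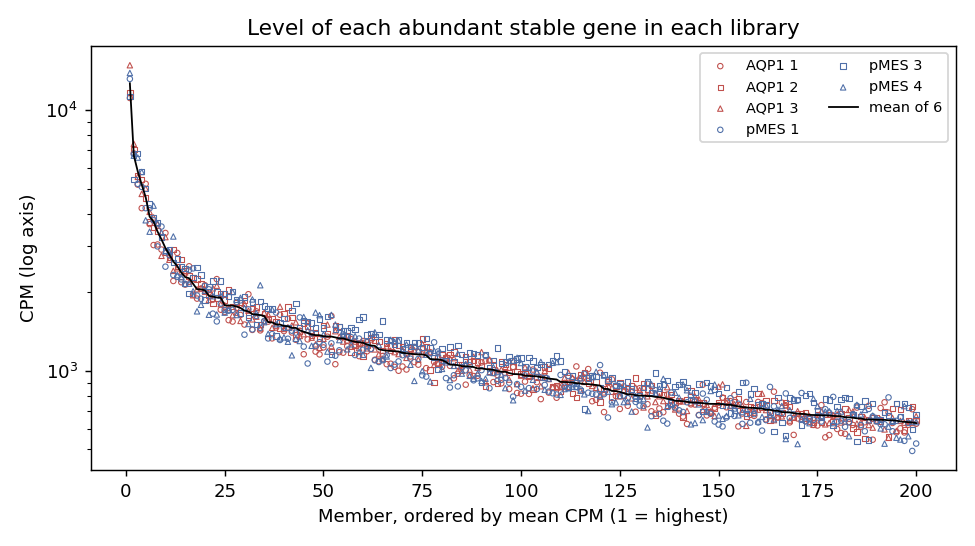
CPM (log axis) of each of the 200 genes in each of the 6 libraries, with genes ordered by their mean CPM; red symbols are AQP1 libraries, blue symbols pMES libraries, and the line is the mean of 6. Levels fall from 12667 CPM at the first gene to 631 CPM at the last, and the symbols of the 2 groups are intermingled along the whole order.

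The 200 genes took a steady part of every library, which their choice for evenness favours. Their summed counts were 24.5%, 26.0% and 25.9% of the total in AQP1 libraries 1, 2 and 3 and 24.7%, 27.3% and 25.6% in pMES libraries 1, 3 and 4. The mean was 25.5% ± 0.824 in AQP1 cells (SD, n = 3) and 25.9% ± 1.296 in pMES cells (SD, n = 3). As described values these differed by less than the spread among libraries of either group. The part is concentrated in few genes: the first 50 held on average 12.4% of a library and the last 50 held 3.41%.

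The 90 genes of the same abundance range that were not chosen held 15.3% to 15.6% in the AQP1 libraries. In pMES library 3 they held 15.8%, and in pMES libraries 1 and 4 they held 17.5% and 17.6%. The pMES libraries that detected fewer genes thus gave more of their reads to the 90 other genes. The 200 genes had no such pattern, with pMES library 3 highest and AQP1 library 1 lowest. The 200 were chosen for evenness over these libraries and the 90 failed that criterion. The contrast between them therefore follows in part from the choice.

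The range criterion left a wide choice of evenness among the 200 genes. The ratio of highest to lowest CPM ran from 1.04 to 1.495 with a median of 1.301, and was at most 1.2 in 32 genes. The coefficient of variation over the 6 libraries had a median of 10.2% and was below 5% in 6 genes. Counting error alone gives a median of 0.630% at these depths, and the variation exceeded it in all 200 genes, by a median factor of 16.03. The same held for all 90 other genes of the abundance range, by a median factor of 38.16. Amplified copies may have been counted as reads, since no molecular identifiers are mentioned. The comparison therefore covers counting error only. Evenness did not follow level within the 200. In successive blocks of 50 genes, from the most to the least abundant, the median ratio was 1.302, 1.28, 1.31 and 1.32.

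ENSGALG00000005236 was the most even of the 200. It had 645, 664 and 642 CPM in AQP1 libraries 1, 2 and 3 and 640.4, 649 and 660.4 CPM in pMES libraries 1, 3 and 4. All 6 values lay together, with a coefficient of variation of 1.49%, against 0.762% from counting. ENSGALG00000003806 came next at over 4 times that level, with a ratio of 1.09. It had 2789.9, 2733 and 2669 CPM in AQP1 libraries 1, 2 and 3 and 2779, 2903 and 2860.3 CPM in pMES libraries 1, 3 and 4. Its lowest values were in AQP1 libraries 2 and 3 and its highest in pMES libraries 3 and 4, over a narrow span.

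At the other end, ENSGALG00000012591 just met the criterion with a ratio of 1.495. It had 739, 756 and 738 CPM in AQP1 libraries 1, 2 and 3 and 820.1, 566 and 548 CPM in pMES libraries 1, 3 and 4. The AQP1 libraries lay close together, and both extremes were pMES libraries. ENSGALG00000016007, with a ratio of 1.494, had 746, 853 and 799 CPM in the AQP1 libraries and 894, 907 and 608 CPM in pMES libraries 1, 3 and 4. Here too the highest and the lowest values were both in pMES.

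The most abundant gene of the whole table fell just outside. ENSGALG00000009621 had 20892, 24191 and 21464 CPM in AQP1 libraries 1, 2 and 3 and 21406, 19052 and 15303 CPM in pMES libraries 1, 3 and 4. Its ratio of 1.58 rested on a high AQP1 library 2 and a low pMES library 4. Among the 90 other genes of the abundance range, the nearest outside the criterion, ENSGALG00000009975, had a ratio of 1.501 at a mean of 1812.5 CPM. At the lower edge of abundance, ENSGALG00000002524 was the last gene taken at a mean of 631.4 CPM, and ENSGALG00000027904 the first left out at 631.2 CPM. The 1.3-fold group criterion removed 2 genes, at means of 36.1 and 7.98 CPM, so neither could have been among the 200.

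**Figure D2:**
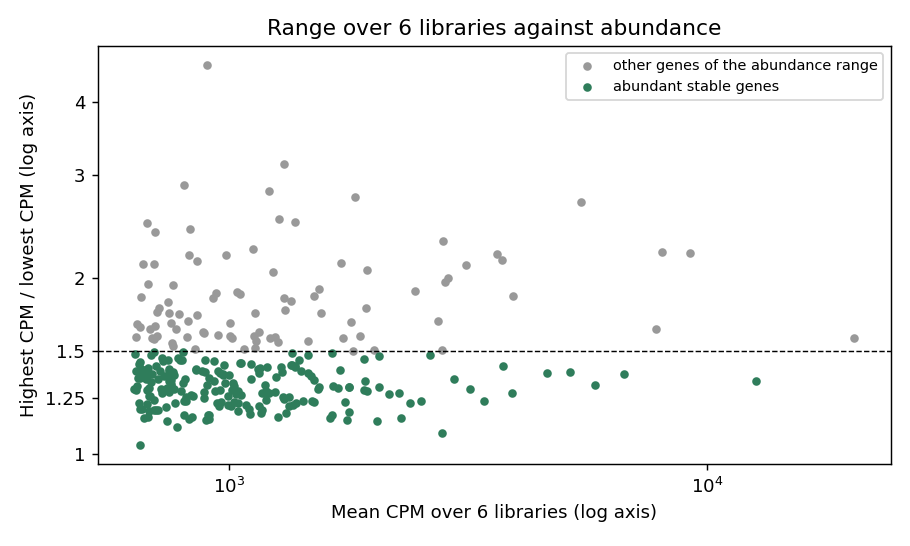
Ratio of highest to lowest CPM over the 6 libraries against mean CPM, both on log axes, for the 200 genes (green) and the 90 other genes of the same abundance range (grey); the dashed line is the criterion of 1.5. The green points run from 1.04 to 1.495, and the grey points reach 4.63.

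Evenness of this degree was far more frequent among abundant genes. The range criterion was met by 63 of the 100 most abundant genes and by 143 of the next 200. It was met by 56.1% of the 700 genes after these, 40.9% of the next 2000, 18.2% of the next 3000 and 3.65% of the next 4000. Counting error widens the ratio of the weakest genes, which at the end of this order stood at 0.773 CPM. Over all genes, 2112 met it, or 19.8% of the 10676 genes with a count in every library.

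The libraries differed from each other across the 200 genes as a whole. Each gene's CPM was divided by its own mean over the 6 libraries. The median of this relative level was 0.945, 1.02 and 0.992 in AQP1 libraries 1, 2 and 3 and 0.955, 1.09 and 0.983 in pMES libraries 1, 3 and 4. pMES library 3 was thus the high library of the set and AQP1 library 1 the low one, and the groups overlapped.

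Gene by gene, the same libraries were most often at the ends. The order of the libraries between these ends was not kept. AQP1 library 3, with a median relative level of 0.992, was the highest in 12 genes. pMES library 4, with a median of 0.983, was the highest in 22. pMES library 3 lay above the gene's own mean in 162 of the 200 genes and was the highest of the 6 libraries in 103. AQP1 library 1 was the lowest in 62, pMES library 1 in 49 and pMES library 4 in 48. Among the 90 other genes of the abundance range the highest value was most often in pMES library 4, in 30 genes, and in pMES library 3 in 12. With library sizes scaled by TMM, a method that trims extreme genes before matching libraries, pMES library 3 was the highest in 115 of the 200 genes and AQP1 library 1 the lowest in 96.

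**Figure D3:**
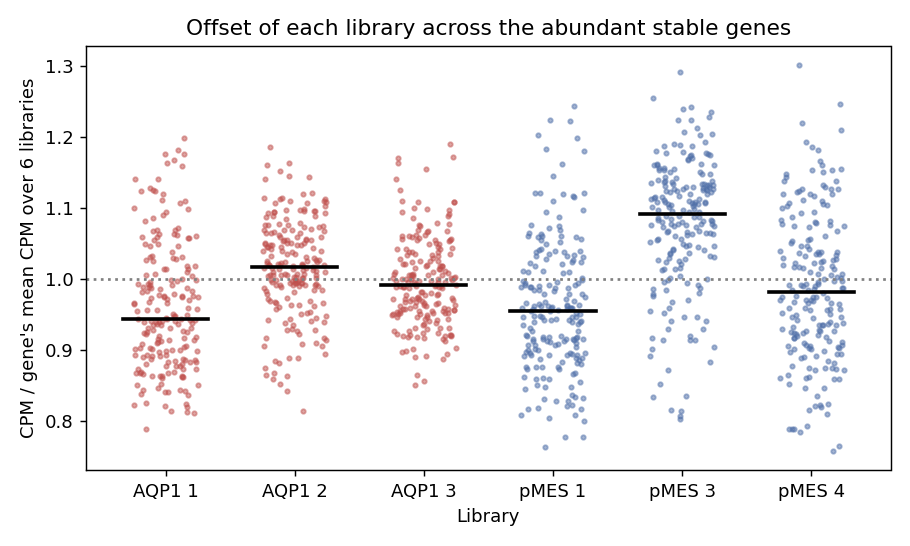
CPM of each of the 200 genes divided by that gene's mean over the 6 libraries, by library (red AQP1, blue pMES); each point is a gene and each bar the median of 200 genes. The bar of pMES library 3 stands at 1.09, those of AQP1 library 1 and pMES library 1 at 0.945 and 0.955.

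Dividing each library by its own median relative level narrowed the set. The median ratio of highest to lowest fell from 1.301 to 1.26, and genes with a ratio of at most 1.2 rose from 32 to 61. The highest ratio became 1.66, and 14 genes then exceeded 1.5. TMM scaling had the opposite effect on the median ratio, which became 1.34, with 24 genes at or below 1.2 and 14 above 1.5. After the division, pMES library 4 held the highest value in 51 genes and the lowest in 50, more than any other library at either end. The division sets the median of each library equal by construction, and pMES library 3 then held 22 highest and 35 lowest values.

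Pairs of libraries were then compared over the 200 genes. The SD of the log2 CPM difference was 0.122, 0.144 and 0.180 between AQP1 libraries and 0.197, 0.223 and 0.227 between pMES libraries. It was 0.167 to 0.248 in the 9 pairs that crossed the groups. The closest pair was AQP1 libraries 2 and 3, and every AQP1 pair except libraries 1 and 2 (0.180) lay below every pair between groups. All 3 pMES pairs lay within the range of the pairs between groups.

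Over all 10819 genes tested, on the log2(CPM + 1) scale, the same SD was 0.371 to 0.456 for AQP1 pairs, 0.638 to 0.808 for pMES pairs and 0.477 to 0.770 between groups. Here all 3 AQP1 pairs lay below every other pair, which over the 200 genes held for 2 of them. pMES libraries 1 and 4, the widest pair over all genes at 0.808, were also the widest pMES pair over the 200, at 0.227. The pair of pMES libraries 1 and 3 was nearly as wide over the 200, at 0.223.

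**Figure D4:**
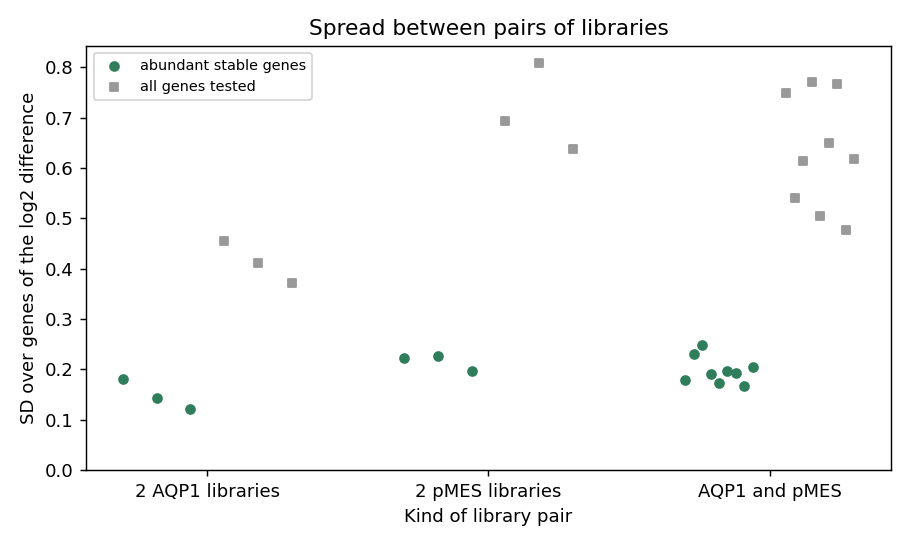
SD over genes of the log2 difference between the libraries of a pair, for 3 AQP1 pairs, 3 pMES pairs and 9 pairs between groups; green circles are the 200 genes (log2 CPM), grey squares all 10819 genes tested (log2 of CPM + 1). The AQP1 pairs lie below all other pairs over all genes; over the 200 genes the widest AQP1 pair (0.180) and the pMES pairs, at 0.197 to 0.227, lie among the pairs between groups.

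Levels in AQP1 and pMES cells were set side by side although the choice of genes fixed that they be near. On mean CPM, the ratio of AQP1 to pMES ran from 0.802 to 1.23 over the 200 genes, with a median of 0.983. It was within 10% of equal in 140 genes, with 83 above 1 and 117 below. In 181 genes the groups overlapped. The AQP1 values all lay above the pMES values in 8 genes and below them in 11. Over all 10819 genes tested these shares were 12.5% above and 5.54% below. The 1.5-fold range over the same libraries limits how far the groups can lie apart, so nothing is read from the counts among the 200.

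Both directions occurred at the ends of the set. ENSGALG00000010178 had 791, 791 and 889 CPM in AQP1 libraries 1, 2 and 3 and 613, 737 and 655 CPM in pMES libraries 1, 3 and 4. All AQP1 values were above all pMES values, with a ratio of means of 1.23. ENSGALG00000007153 had 686, 678 and 760.2 CPM in the AQP1 libraries and 844, 983 and 822 CPM in pMES libraries 1, 3 and 4. All its AQP1 values were below all pMES values, with a ratio of 0.802, and pMES library 3 was the highest by some distance.

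In edgeR's quasi-likelihood fit over all genes, 0 of the 200 had a Benjamini-Hochberg adjusted p under 0.05, against 0% of all genes tested. Their lowest adjusted p was 0.435 in that edgeR fit, and 9 of them, or 4.5%, had an unadjusted p under 0.05, against 9.49% of all genes. DESeq2's Wald test called 0 of the 200 at an adjusted p under 0.05, and 1.61% of all genes. The 200 were chosen on the same libraries for a small range, which limits the difference between the groups, so nothing is read from these counts.

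The share of the 200 at an unadjusted p under 0.05 in edgeR's test was 4.5% with all libraries and moved with most single libraries. Without AQP1 library 2 it stayed at 4.5%, against 5.68% of all genes tested in that fit. It was 0.5% without AQP1 library 1, against 6.41% of all genes tested in that fit, and 0.5% without AQP1 library 3, against 5.19%. It was 1% without pMES library 4, against 12.5%, and 3% without pMES library 3, against 14.8%. Without pMES library 1 it was 15%, against 10.5%. With the replicate number as a block it was 11%, against 10.3%, but in that fit only numbers 1 and 3 compare the groups. With library size as the only scaling it was 1%, against 9.88%. The 1.5-fold range over the same libraries limits the difference of AQP1 from pMES among the 200, so nothing is read from these shares.

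The threshold stated for the series, read as a fold change above 1.5 with an unadjusted p under 0.05, was met by 0 of the 200 and by 6.29% of all genes. These counts also follow from the choice. The fitted log2 fold changes of AQP1 over pMES, on TMM-scaled sizes, ran from -0.39 to 0.23 with a median of -0.10, and the median over all genes was -0.0087. With library size as the only scaling the medians were -0.025 and 0.064. Leaving out 1 library moved the median of the 200 between -0.125 (without pMES library 1) and -0.040 (without pMES library 3). Without AQP1 library 1 it was -0.046. Standard errors, derived from each fold change and its test statistic, were 0.0997 to 0.176, with a median of 0.136. The median over all genes tested was 0.301. The 200 were chosen for abundance and small spread, so their smaller standard errors also follow from the choice.

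Evenness was next read in a library that had no part in the choice. The same rule was applied to 5 libraries at a time, and the 200 genes so chosen were looked up in the sixth. With that library added, 189, 194 and 196 of them kept a ratio of at most 1.5 when AQP1 libraries 1, 2 and 3 were left out of the choice. The numbers were 191, 181 and 175 for pMES libraries 1, 3 and 4. The pMES libraries 3 and 4 thus removed the most genes, and AQP1 library 3 the fewest. Genes that pass here meet the range criterion over all 6 libraries, so nearly all of them are among the 200 described above. The 5-library choices shared 189, 193 and 195 genes with those 200 for AQP1 libraries 1, 2 and 3. They shared 191, 181 and 175 for pMES libraries 1, 3 and 4. Genes as abundant but not chosen had failed the rule, so no share among them can be set beside these numbers.

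The level in the left-out library was also compared with the gene's mean over the other 5. It lay within 1.2-fold of that mean in 82.0%, 94.0% and 95.0% of the chosen genes for AQP1 libraries 1, 2 and 3, and in 81.5%, 74.5% and 76.0% for pMES libraries 1, 3 and 4. Genes that were as abundant in the 5 libraries but had not been chosen, 55 to 85 in number, were within 1.2-fold in 43.6% to 63.4%. The chosen genes were nearer in each of the 6 libraries. Genes not chosen had failed the rule in those 5 libraries, so the mean they are set against is itself less steady. The contrast therefore follows in part from the choice. The 6 choices share most of their libraries, so they are not independent and no p is given.

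Deviations beyond 1.5-fold were rare among chosen genes. There were 0 to 3 such genes in each of 5 libraries and 10 in pMES library 4, at most 5% of the 200, against 2.35% to 17.6% of the genes not chosen. pMES library 3 also carried its offset into this reading: its median level was 1.11 times the mean of the other 5 libraries, against 0.930 in AQP1 library 1.

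**Figure D5:**
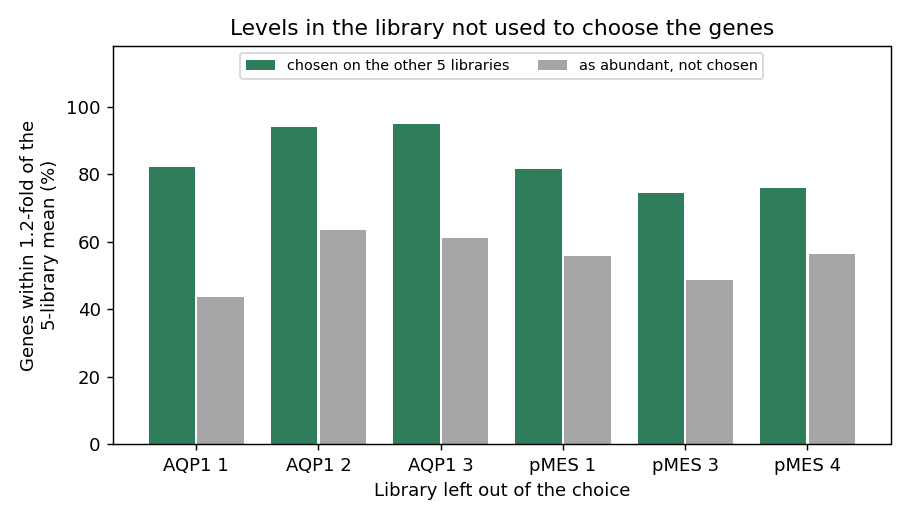
Percentage of genes whose CPM in the library left out of the choice was within 1.2-fold of their mean over the other 5 libraries; green bars are the 200 genes chosen on those 5 libraries, grey bars the genes as abundant that were not chosen. Green bars stand at 74.5% to 95.0% and grey bars at 43.6% to 63.4%, with the lowest green bar at pMES library 3.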

How the data were processed

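The authors deposited 1 table of raw read counts, with Ensembl genes as rows and samples as columns. Per the labels' protocols, cDNA was amplified with SMART-seq v4, libraries were made with Nextera XT and single-end reads of 51 bases were mapped to galGal4 with Ensembl annotation in STAR 2.5.2b. No molecular identifiers are mentioned. How reads were counted, whether by strand and how reads with several matches were treated, is not given in the sources used here, so counts of overlapping genes and near-identical copies are uncertain.

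Columns were assigned to samples by title. CPM was computed on column totals, and the genes were chosen by the rule given in the report. All genes were fitted with edgeR 4.0.16 (R 4.3.3): TMM, filterByExpr (10819 genes kept), quasi-likelihood test, no covariate, Benjamini-Hochberg adjustment. The code was tested on simulated counts. Alternatives are in the closing section. The members, rules and lists were chosen with earlier results of these data known. The planned gene lists and markers were not used, for want of symbols. The rule for named genes took the genes highest in level, at the ends of the range and at the edges of each criterion. Fewer are printed than it allows, because identifiers without names say little, and the genes at the ends of the AQP1 to pMES ratio were picked after their values were seen.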

Additional observations from a re-analysis of the deposited data

How the results depend on the processing

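The list of 200 genes depended most on the range criterion. With a highest level of at most 5/4 of the lowest, 60 of the 200 remained and the chosen genes held 11.4% of the counts, since the criterion is stricter by construction; with at most 2, 151 remained and the share was 31.5%. With sizes scaled by TMM or by DESeq2's size factors, 186 and 185 remained, and without the group criterion all 200. Leaving out 1 library kept from 175 genes (without pMES library 4) to 195, with shares of 25.9% to 29.8% against 25.7% for the 200 genes, and median ratios of 1.26 to 1.29. Without pMES libraries 1 and 4, chosen after the data were examined, 168 remained and the share was 30.8%. Here 4570 genes met both criteria, and the range criterion is again easier to meet by construction. Whether anything else moved the share was not tested. Genes still within range in the library left out of the choice made up a median of 95.0%, and 93.0% on TMM-scaled sizes, also added afterwards. The 95.0% nearly repeats the overlap of the lists given above and is not a separate result.

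Over all genes, 0 had an adjusted p under 0.05 in edgeR's quasi-likelihood test, with 1027 at an unadjusted p under 0.05. The count was 6 without a filter on low counts and 174 with DESeq2's Wald test, and the cause was not tested. Leaving out 1 library gave 0 to 1 gene. The threshold of the series was met by 680 genes, 310 higher and 370 lower in AQP1. It was met by 478 genes without AQP1 library 2 and by 1293 and 1078 without pMES libraries 3 and 4. With library size alone 443 were higher and 267 lower. Scaling on the summed counts of the 200 genes, added after the data were examined, gave 509 and 233. It brought the median log2 fold change of the 200 from -0.097 to -0.0020. By construction this scaling evens the sum of the 200, which makes a small median likely but does not fix it. In a fit with a replicate block for the number, 767 genes met the threshold, 0 had an adjusted p under 0.05, and the median log2 fold change of the 200 was -0.16. AQP1 library 2 and pMES library 4 share their number with no other library, so only numbers 1 and 3 compare the groups in that fit. To compare same-numbered libraries, each gene's group mean of log2 CPM was subtracted. The remaining deviations correlated at 0.0567 for number 1 and 0.0595 for number 3 across genes. No further number occurs in both groups, and the samples were left unpaired.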
